A study of Mus musculus with 12 samples.

Results

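Splicing regulators of the heart were followed across a mouse model of endotoxin injury. The genes are the 45 protein-coding genes whose GENCODE symbol for the mouse build GRCm38 begins with Srsf or Hnrnp, or that belong to a panel of 14 other regulators (Rbm20, Rbm24, Rbfox1, Rbfox2, Mbnl1, Mbnl2, Celf1, Celf2, Qk, Ptbp1, Tra2a, Tra2b, Clk1 and Clk4). Of these, 44 were listed for all 12 libraries, among 12866 genes in all. Srsf12 was not analysed here. The 44 genes have 186 transcripts among the 24723 annotated transcripts listed throughout, and 36 of them have more than 1 listed transcript.

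RNA depleted of ribosomal RNA was sequenced from hearts of wild-type C57BL/6 mice, in 3 groups of 4 libraries. The Control group was given saline over 3 days. The LPS group was given lipopolysaccharide, an endotoxin of Gram-negative bacteria, at 10 mg/kg over the same time. In the LPS+XJDHT group this dose was combined with Xijiao Dihuang decoction, a Chinese herbal formula, at 50 mg/kg per day. The values were read as FPKM, fragments scaled to transcript length and library size. On that reading they imply 73.8 to 77.8 M fragments per library. The sum of a gene holds only its listed transcripts, such as 1 of 28 annotated for Celf2 and 12 of 13 for Hnrnpa2b1. Levels of different genes can therefore be compared only in part. Each library rests on 1 mouse, as the labels number them, and the labels give no age.

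Splicing joins exons and removes introns, and sequence-specific RNA-binding proteins decide which alternative exons are kept. SR proteins (the Srsf genes) mostly bind exons and favour their use, whereas many heterogeneous nuclear ribonucleoproteins (the Hnrnp genes) and Ptbp1 favour skipping. In cardiomyocytes, Rbm20, Rbm24, Rbfox1, Mbnl1 and the Celf proteins shape the transcripts of the sarcomere and of calcium handling, and many of these regulators limit their own output by making transcripts that carry a premature stop or keep an intron.

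The make-up of the tissue differed between the groups. The summed FPKM of 12 cardiomyocyte markers was between 25678 and 27090 in Control, 12664 and 14979 in LPS, and 10805 and 15415 in LPS+XJDHT, and 7 of 11 markers tested were lower in LPS. All 5 tested neutrophil markers were higher in LPS, with sums of 1.04 to 2.73 in Control, 79.1 to 117 in LPS and 75.6 to 152 in LPS+XJDHT (7 of 9 listed, Cxcr2 and Ly6g not among them). Monocyte sums were 0.235 to 4.55, 24.6 to 33.5 and 18.8 to 38.1 (3 of 4 tested markers higher), fibroblast sums 418 to 515, 735 to 882 and 610 to 976 (3 of 7 higher, 1 lower) and endothelial sums 572 to 665, 734 to 1064 and 789 to 993 (1 of 7 higher). Macrophage markers overlapped between groups, smooth muscle markers were lower (3 of 8), erythroid markers were lower (1275 to 1379, 238 to 803 and 125 to 253), and small intestine markers were detected mainly in LPS (0.539 to 1.55, 15.98 to 23.6 and 0.306 to 1.92). Sums of 5 testis markers were 4.35 to 7.35 in Control, 2.79 to 13.2 in LPS and 0 to 0.0873 in LPS+XJDHT, which sets the LPS+XJDHT libraries apart from both other groups. The part of this in the comparisons with LPS+XJDHT was not tested. Of the T cell and skeletal muscle lists 0 markers were listed. In these bulk samples, fewer cells of a type and less RNA per cell cannot be told apart. The part of cell make-up in the results that follow was not tested. The sum of 4 Y-linked genes was 0.205 FPKM in LPS+XJDHT replicate 2 and 20.4 to 61.9 FPKM in the other 11 libraries. Without that library, the counts of genes given below were 19 for LPS against Control, 0 for LPS+XJDHT against LPS and 21 for LPS+XJDHT against Control.

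The comparison of LPS with Control asks how endotoxin changes the regulators themselves. Several abundant regulators about doubled, led by Srsf5, Hnrnpa1, Hnrnpdl, Hnrnpl and Ptbp1, and a few fell, led by the muscle and neuron regulator Rbfox1 and by Srsf7. Of the 43 genes that reached 1 FPKM in at least 4 libraries, 14 rose and 5 fell (limma on log2(FPKM + 1), Benjamini-Hochberg adjusted p below 0.05). Across all 11509 genes tested, 38.6% passed, 26.6% upward and 12% downward, so the share of regulators that passed was near the background. The groups did not overlap for 19 regulators, and for 37.4% of all genes. The median log2 fold change was 0.30 over the regulators and 0.16 over all genes. In the Hnrnp family 10 of 20 rose and 1 fell, in the Srsf family 2 of 10 rose and 2 fell, and among the other regulators 2 of 13 rose and 2 fell. Scaling each library by its median ratio shifts the median gene by -0.15 on the log2 scale, and by -0.19 in LPS+XJDHT against Control. In LPS against Control it left 11 regulators higher and 6 lower, with 18.6% and 18.4% of all genes, and in the Hnrnp family 9 higher and 2 lower. The Hnrnp median went from 0.47 to 0.28, and Srsf5 and Hnrnpa1 from 1.40 and 1.13 to 1.20 and 0.94.

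**Figure D1:**
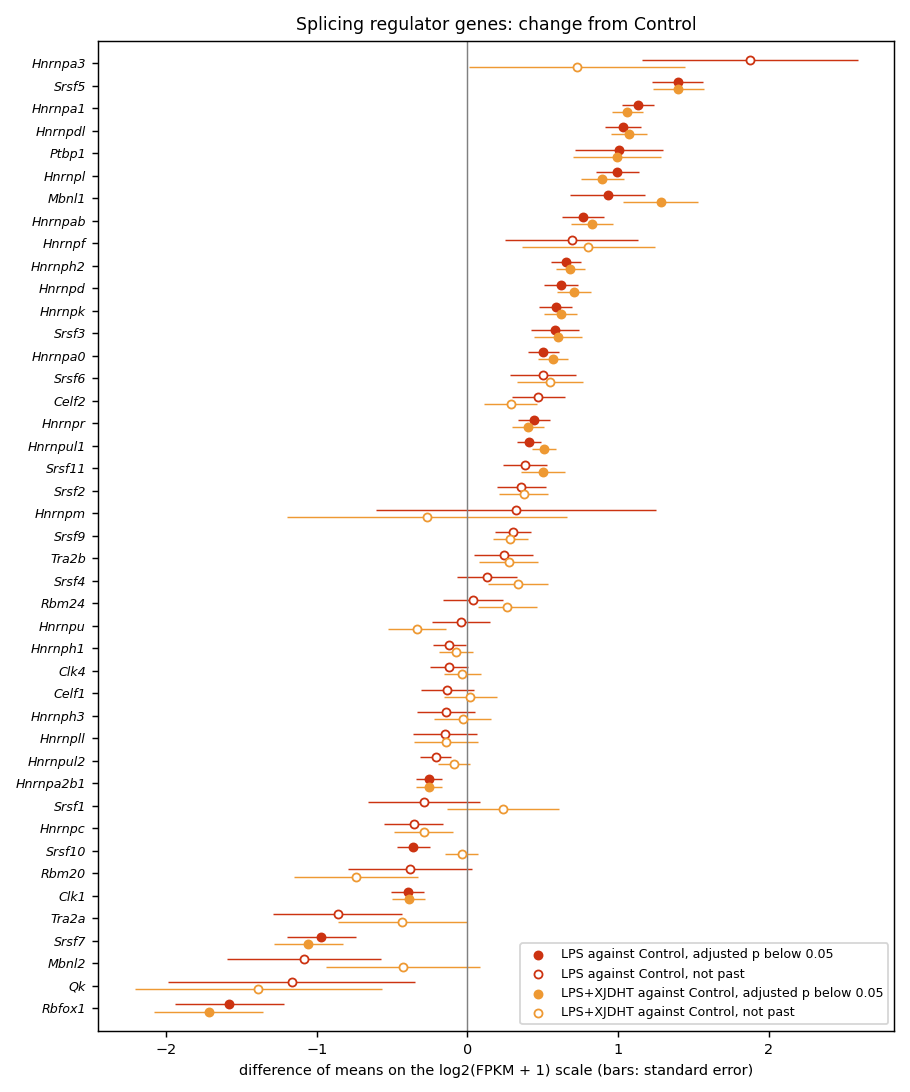
Difference of group means on the log2(FPKM + 1) scale, with its standard error, for the 43 tested regulators in LPS against Control (red) and LPS+XJDHT against Control (orange). Filled points passed at adjusted p below 0.05. The comparisons share the Control libraries; Srsf5 lies at 1.40 in both and Rbfox1 at -1.58 and -1.72.

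Among the SR proteins, Srsf5, which responds early to growth and insulin signals, rose most. It measured 56.4, 70.7, 67.0 and 83.7 FPKM in Control, 224, 152, 164 and 200 FPKM in LPS, and 189, 138, 192 and 224 FPKM in LPS+XJDHT. Every LPS library lay above every Control library, and the log2 fold change was 1.40 ± 0.17 (SE, adjusted p = 8.4e-05). Of 9 Srsf5 transcripts tested, 8 rose and 0 fell. The risers included the coding transcript Srsf5-205 (mean 25.9 to 76.8 FPKM), the short processed transcript Srsf5-211 (5.01 to 24.4 FPKM) and the intron-retaining Srsf5-212 (11.8 to 23.7 FPKM). Coding and non-coding products of the gene were higher side by side. Srsf3, the smallest SR protein, rose by 0.58 ± 0.16 (adjusted p = 0.013), a call lost with median-ratio scaling and when every transcript of the Control and LPS files was summed (adjusted p up to 0.088).

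The SR proteins that fell were expressed at lower levels. Srsf7, which like Srsf3 also links splicing to mRNA export, was 5.57, 2.85, 4.96 and 2.32 FPKM in Control, 1.18, 1.64, 2.05 and 0.942 FPKM in LPS, and 1.51, 1.48, 1.24 and 0.908 FPKM in LPS+XJDHT. The groups given LPS lay below Control without overlap, and the Control libraries differed widely among themselves (log2 fold change -0.97 ± 0.23, adjusted p = 0.0060). Srsf10, a splicing repressor when dephosphorylated, was 10.3, 9.54, 9.91 and 12.1 FPKM in Control, 8.77, 6.64, 7.48 and 8.90 FPKM in LPS, and 9.65, 9.91, 10.1 and 10.8 FPKM in LPS+XJDHT. It fell by 0.36 ± 0.11 in LPS (adjusted p = 0.023), and the call was lost without Control replicate 4, without LPS replicate 2 or with the compared groups alone (adjusted p up to 0.069). Of the remaining SR proteins, Srsf1, Srsf2, Srsf4, Srsf6, Srsf9 and Srsf11 did not pass, with log2 fold changes from -0.29 to 0.50. Srsf11, Srsf9 and Srsf6 came closest (adjusted p = 0.057, 0.066 and 0.092). Srsf6 passed without LPS replicate 3 (0.049), Srsf9 without Control replicate 2 (0.041), and Srsf11 in 4 of 19 alternatives, among them those without Control replicate 3 or LPS replicate 4 (as low as 0.042).

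Hnrnpa1, an abundant repressor of exons that also shuttles mRNA, showed the smallest adjusted p of all the regulators. It was 37.8, 37.5, 38.9 and 40.2 FPKM in Control, 80.7, 92.9, 76.8 and 94.2 FPKM in LPS, and 94.4, 77.0, 68.8 and 89.3 FPKM in LPS+XJDHT. The Control libraries were tightly grouped and all LPS libraries were about double (log2 fold change 1.13 ± 0.11, adjusted p = 1.4e-05). Hnrnpdl, a close relative of Hnrnpd, was 15.9, 19.4, 17.8 and 17.0 FPKM in Control, 38.1, 41.1, 33.4 and 35.3 FPKM in LPS, and 43.8, 30.7, 42.2 and 36.3 FPKM in LPS+XJDHT (log2 fold change 1.03 ± 0.12 for LPS, adjusted p = 5.6e-05). Hnrnpl, which binds CA-rich RNA, was 27.6, 28.1, 36.5 and 35.3 FPKM in Control, 71.0, 68.6, 55.7 and 62.0 FPKM in LPS, and 74.0, 52.2, 64.9 and 50.7 FPKM in LPS+XJDHT (0.99 ± 0.14, adjusted p = 0.00025). In all 3 genes the groups given LPS lay apart from Control. Near-identical copies of such genes exist in the genome, and how shared fragments were divided among them is not given in the sources used here.

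Another 7 Hnrnp genes rose by less. Hnrnpab, an A/B-type RNA-binding protein, was 57.4, 68.9, 62.7 and 65.3 FPKM in Control, 128, 126, 92.2 and 93.4 FPKM in LPS, and 125, 133, 93.6 and 107 FPKM in LPS+XJDHT (log2 fold change 0.77 ± 0.14 for LPS, adjusted p = 0.0012). Hnrnph2, a binder of G-runs, was 27.7, 28.2, 23.5 and 25.8 FPKM in Control, 49.6, 38.6, 39.6 and 40.6 FPKM in LPS, and 45.9, 43.9, 39.0 and 42.5 FPKM in LPS+XJDHT (0.65 ± 0.10, adjusted p = 0.00035). Neither gene had a Control library within the range of LPS. Hnrnpd, which is also known as AUF1 and binds AU-rich elements, was 4.40, 4.93, 5.38 and 5.26 FPKM in Control, 7.54, 9.29, 9.36 and 6.88 FPKM in LPS, and 9.06, 8.28, 8.26 and 9.55 FPKM in LPS+XJDHT (0.62 ± 0.12, adjusted p = 0.0014). Hnrnpk, a binder of C-rich RNA, was 44.6, 35.8, 41.8 and 52.8 FPKM in Control, 60.2, 71.1, 62.0 and 69.9 FPKM in LPS, and 70.2, 66.1, 64.1 and 68.1 FPKM in LPS+XJDHT (0.59 ± 0.11, adjusted p = 0.0014). These ranges were apart too. Hnrnpa0, Hnrnpr and Hnrnpul1 rose by 0.50, 0.44 and 0.41 (adjusted p = 0.0025, 0.0066 and 0.0021), and the call of Hnrnpr was lost with median-ratio scaling (0.051).

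Hnrnpa2b1, the regulator with the highest FPKM in Control, moved the other way. It was 116, 130, 146 and 144 FPKM in Control, 125, 108, 106 and 111 FPKM in LPS, and 112, 119, 111 and 107 FPKM in LPS+XJDHT. LPS replicate 1 lay within the range of Control, the log2 fold change was -0.25 ± 0.09 (adjusted p = 0.037), and the call was lost in 9 of 19 alternatives (adjusted p up to 0.10), among them those without Control replicate 2, 3 or 4 or LPS replicate 2, 3 or 4. The other 9 Hnrnp genes did not pass. Hnrnpa3 was listed at 0 in all Control libraries and at 2.53, 4.48, 8.38 and 0 FPKM in LPS (adjusted p = 0.058), with a call in 3 alternatives that include those without LPS replicate 4 or LPS+XJDHT replicate 3 (as low as 0.011). The Hnrnpa3 values hold 1 of its 7 annotated transcripts, so a 0 does not show that the gene was silent. Hnrnpm ranged from 0.739 to 23.8 FPKM within LPS alone and Hnrnpf from 8.74 to 47.9 FPKM within Control. Hnrnpc, Hnrnph1, Hnrnph3, Hnrnpll, Hnrnpu and Hnrnpul2 had log2 fold changes from -0.36 to -0.04, and Hnrnpul2 passed downward with median-ratio scaling (adjusted p = 0.0047). The Hnrnph1 sum holds 7 of 18 annotated transcripts, and 97.0% to 99.9% of it was non-coding transcripts. It therefore says little about the coding mRNA of that gene.

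**Figure D2:**
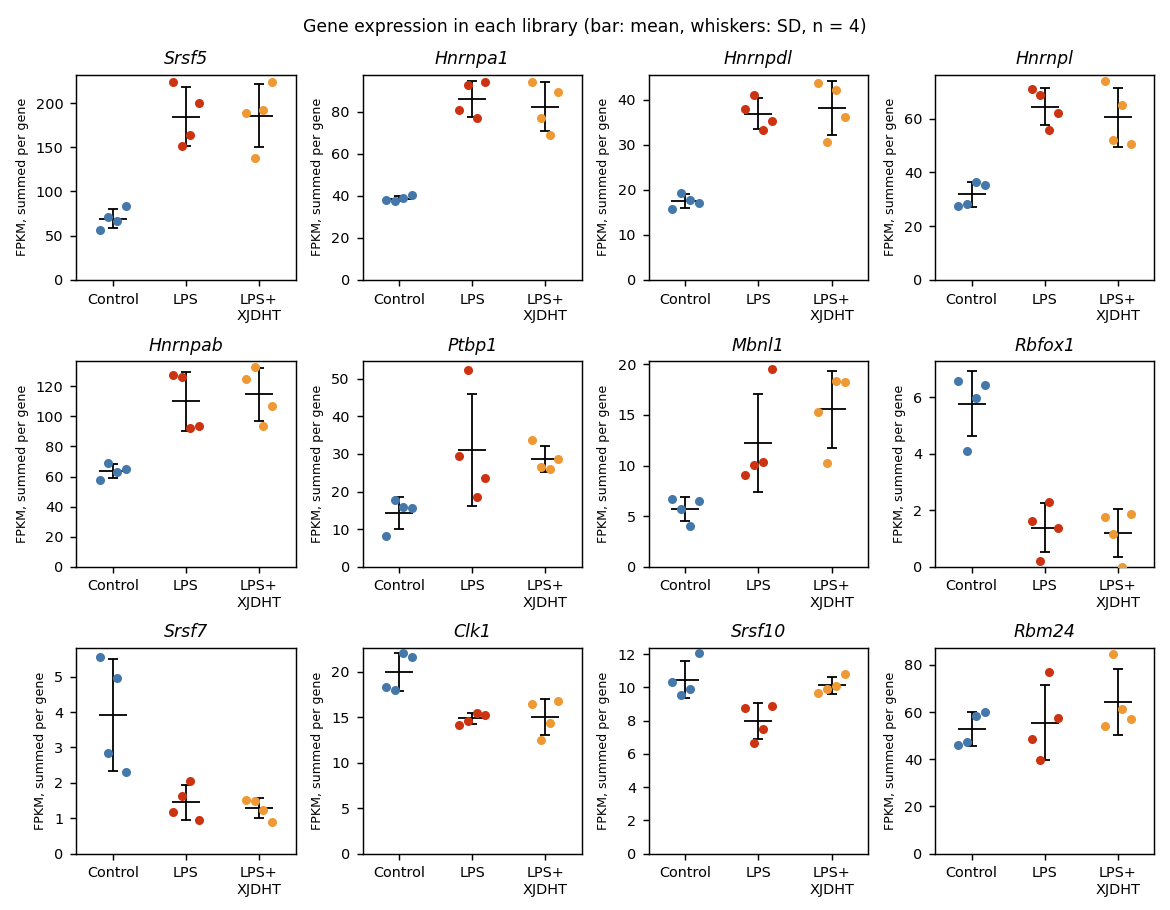
FPKM summed per gene in each of the 12 libraries for 12 regulators, with the group mean and SD (n = 4). Srsf5, Hnrnpa1, Hnrnpdl and Hnrnpl lie higher in both groups given LPS than in Control, Rbfox1 and Srsf7 lie lower, and Rbm24 overlaps in all groups.

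Of the tissue-specific regulators, Rbfox1 fell the most. Rbfox1 binds the motif TGCATG in introns beside alternative exons of heart, muscle and brain. It was 6.57, 4.09, 5.99 and 6.45 FPKM in Control, 1.62, 0.213, 2.29 and 1.38 FPKM in LPS, and 1.75, 1.17, 0 and 1.86 FPKM in LPS+XJDHT. All LPS libraries lay below all Control libraries, with a log2 fold change of -1.58 ± 0.36 (adjusted p = 0.0050). The call was lost by limma-voom and with the pseudocount lowered to 0.1 (adjusted p up to 0.096). The value rests on a single listed transcript, Rbfox1-203. Rbfox2, its more widely expressed relative, stayed under the limit for testing, at 0.352, 0.250, 0.156 and 0.143 FPKM in Control, 0.410, 0.374, 0.906 and 0.373 FPKM in LPS, and 0.195, 0.464, 0.146 and 0.142 FPKM in LPS+XJDHT. These values hold 1 of the 15 annotated Rbfox2 transcripts, so they do not give the expression of the whole gene.

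Mbnl1 rose and its relative Mbnl2 was too uneven to call. Muscleblind proteins drive the adult splicing pattern of heart muscle and are the ones trapped by repeat RNA in myotonic dystrophy. Mbnl1 was 6.66, 5.70, 4.06 and 6.52 FPKM in Control, 9.06, 10.0, 10.3 and 19.5 FPKM in LPS, and 15.3, 10.3, 18.4 and 18.3 FPKM in LPS+XJDHT (log2 fold change 0.93 ± 0.25 for LPS, adjusted p = 0.011), with no overlap between LPS and Control. Mbnl2 was 18.8, 30.0, 16.4 and 39.9 FPKM in Control, 8.12, 6.70, 33.1 and 8.02 FPKM in LPS, and 30.6, 14.5, 27.5 and 8.52 FPKM in LPS+XJDHT. LPS replicate 3 stood among the Control values (-1.08 ± 0.51, adjusted p = 0.12), and without it Mbnl2 passed (0.011). Non-coding transcripts made up 97.9% to 99.97% of the Mbnl2 sum in Control, 13.1% to 92.8% in LPS and 74.5% to 95.2% in LPS+XJDHT. The sum therefore says little about the coding mRNA of Mbnl2.

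The Celf proteins, which oppose the muscleblind proteins at many exons, did not pass. Celf1 was 16.8, 12.9, 15.6 and 19.8 FPKM in Control, 13.3, 15.7, 14.7 and 14.7 FPKM in LPS, and 20.7, 19.6, 11.4 and 15.3 FPKM in LPS+XJDHT (adjusted p = 0.59). Celf2 was 1.09, 0.619, 0.464 and 0.843 FPKM in Control, 0.961, 1.21, 1.76 and 1.82 FPKM in LPS, and 0.852, 0.871, 1.59 and 1.25 FPKM in LPS+XJDHT. LPS replicate 1 overlapped with Control, and Celf2 lay just short of the threshold (log2 fold change 0.47 ± 0.17, adjusted p = 0.0501). It passed in 5 of 18 alternatives, among them those without LPS+XJDHT replicate 3, LPS replicate 1 or Control replicate 1 (as low as 0.031). The values hold 1 of the 28 annotated Celf2 transcripts. Celf2-202 and Celf2-221, listed only for LPS+XJDHT at up to 1.13 and 0.769 FPKM, were left out.

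Rbm20 and Rbm24, the heart's own splicing factors, overlapped between groups. Rbm20, which represses exons of titin and whose mutations cause dilated cardiomyopathy, was 5.74, 13.1, 16.4 and 10.4 FPKM in Control, 6.58, 4.57, 12.2 and 10.8 FPKM in LPS, and 3.27, 13.7, 5.19 and 5.27 FPKM in LPS+XJDHT (log2 fold change -0.38 ± 0.41 for LPS, adjusted p = 0.50). Rbm24, needed for sarcomere assembly, was 46.1, 47.3, 58.4 and 60.0 FPKM in Control, 48.5, 39.6, 76.8 and 57.4 FPKM in LPS, and 54.2, 84.8, 61.3 and 57.3 FPKM in LPS+XJDHT (0.04 ± 0.20, adjusted p = 0.90, and -0.16 with median-ratio scaling). Neither gene differed beyond the spread between libraries, while the summed cardiomyocyte markers were lower in LPS.

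Ptbp1, the repressor that silences muscle and neuron exons in most other cells, rose. It was 8.20, 17.7, 15.9 and 15.6 FPKM in Control, 29.6, 52.4, 18.6 and 23.5 FPKM in LPS, and 33.6, 26.5, 26.0 and 28.5 FPKM in LPS+XJDHT. All LPS libraries lay above Control (log2 fold change 1.00 ± 0.29, adjusted p = 0.018), and the call was lost with median-ratio scaling (0.051). In LPS replicate 2, 23.4 of the 52.4 FPKM came from an intron-retaining transcript, Ptbp1-205, that was at most 3.40 FPKM in the other 11 libraries.

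Of the SR-protein partners and kinases, the summed FPKM of Clk1, which phosphorylates SR proteins in the nucleus, fell. It was 18.3, 18.01, 22.0 and 21.6 FPKM in Control, 14.2, 14.6, 15.5 and 15.3 FPKM in LPS, and 16.4, 12.5, 14.4 and 16.8 FPKM in LPS+XJDHT. In this sum both groups given LPS lay below Control without overlap (log2 fold change -0.40 ± 0.11 for LPS, adjusted p = 0.013). Non-coding transcripts made up 53.5% to 79.5% of the Clk1 sum in Control, 67.1% to 79.1% in LPS and 82.0% to 100% in LPS+XJDHT. The coding transcript, given further below, overlapped between Control and LPS. The lower sum in LPS therefore does not show a fall of the coding mRNA of Clk1. Clk4, a relative of Clk1, was 7.89, 8.53, 8.77 and 6.71 FPKM in Control, 8.03, 6.14, 8.31 and 6.57 FPKM in LPS, and 7.74, 8.87, 7.05 and 7.34 FPKM in LPS+XJDHT (adjusted p = 0.47). Tra2b, an activator of purine-rich exons, was 11.0, 10.4, 10.5 and 12.7 FPKM in Control, 13.9, 14.0, 10.4 and 15.4 FPKM in LPS, and 16.4, 14.2, 8.34 and 17.5 FPKM in LPS+XJDHT (0.37). Tra2a, its paralog, was 3.49, 8.46, 4.25 and 4.52 FPKM in Control, 1.04, 2.85, 6.22 and 0.993 FPKM in LPS, and 2.89, 1.62, 5.81 and 4.36 FPKM in LPS+XJDHT (0.13). Clk4, Tra2b and Tra2a each overlapped between groups, and Tra2a passed downward without LPS replicate 3 (adjusted p = 0.021).

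Qk, the STAR-family protein quaking, which controls splicing and RNA circles in muscle, split by transcript. The gene was 29.3, 28.9, 18.2 and 33.5 FPKM in Control, 62.7, 10.9, 4.86 and 4.31 FPKM in LPS, and 46.8, 7.76, 3.31 and 6.08 FPKM in LPS+XJDHT (adjusted p = 0.29, and 0.046 without LPS replicate 1). The libraries that stand apart owe it to Qk-202, at 61.3 FPKM in LPS replicate 1 and 43.6 FPKM in LPS+XJDHT replicate 1 against 1.58 to 9.10 FPKM in the other 6 libraries given LPS. In Control, Qk-202 held 68.1%, 76.7%, 26.7% and 69.6% of the gene sum, so it was not low there either. Qk-201 was even, at 9.35, 6.74, 13.3 and 10.2 FPKM in Control, 1.41, 1.79, 1.85 and 1.32 FPKM in LPS, and 3.20, 2.39, 1.73 and 1.67 FPKM in LPS+XJDHT. It fell by 2.04 ± 0.21 in LPS, the smallest adjusted p of all regulator transcripts (6.2e-05). The transcripts are annotated with different coding ends, shown here in GENCODE's sequence with the bases after the shared part in capitals, up to the stop codon.
Qk-201: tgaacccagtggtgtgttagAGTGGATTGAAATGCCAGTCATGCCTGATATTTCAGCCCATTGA
Qk-202: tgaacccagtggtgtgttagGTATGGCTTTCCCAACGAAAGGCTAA
Qk-202 is annotated as a target of nonsense-mediated decay, the pathway that destroys mRNAs whose stop codon lies before a splice junction. That label comes from the annotation alone. Whether Qk-202 decays or is translated in these hearts was not tested. The gene sum holds 2 of the 6 annotated Qk transcripts.

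Rbm20 and Mbnl2 were uneven in the same manner, and their gene sums hide it. The coding transcript Rbm20-203 was 2.85, 12.8, 16.2 and 2.60 FPKM in Control, 1.31, 1.12, 12.1 and 10.1 FPKM in LPS, and 1.83, 13.5, 1.37 and 1.03 FPKM in LPS+XJDHT. Rbm20-201, annotated for nonsense-mediated decay, was 2.89, 0.334, 0.234 and 7.81 FPKM in Control, 5.27, 3.44, 0.127 and 0.634 FPKM in LPS, and 1.44, 0.146, 3.83 and 4.24 FPKM in LPS+XJDHT. Libraries high in the first were low in the second, within each group. Mbnl2-205, a processed transcript, held 93.6% to 97.4% of Mbnl2 in Control but 49.4%, 0.0675%, 90.3% and 0.0584% in LPS, and 85.3%, 83.7%, 90.7% and 0.0523% in LPS+XJDHT (share adjusted p = 0.11 for LPS). How much of this comes from assigning shared fragments to transcripts was not tested.

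**Figure D3:**
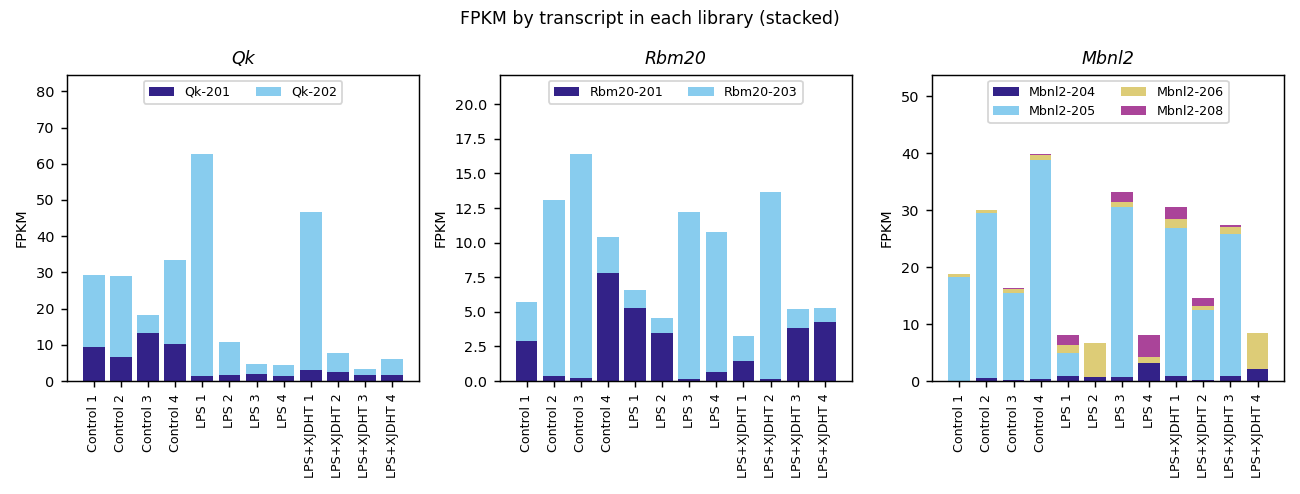
FPKM of each listed transcript of Qk, Rbm20 and Mbnl2, stacked, in the 12 libraries. Qk-202 dominates in LPS replicate 1 (61.3 FPKM) and LPS+XJDHT replicate 1 (43.6 FPKM), and Rbm20-201 and Rbm20-203 alternate between libraries of all groups.

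At the level of single transcripts, 30 of 153 rose and 12 fell in LPS against Control, where 25.6% of all 18644 transcripts tested passed, 17.3% upward and 8.26% downward. Of the 42, 26 were protein-coding, 8 kept an intron, 5 were processed transcripts and 3 were annotated for nonsense-mediated decay. With median-ratio scaling 22 rose and 20 fell, with 12.7% and 12.1% of all transcripts. These counts mix a change of the gene with a change in the mix of its transcripts, so each transcript was also tested as a ratio to the others of its gene, log2((FPKM + 0.5)/(FPKM of the others + 0.5)). By that measure 5 of 145 transcripts took a larger share in LPS and 4 a smaller one, where 5.15% of all 11382 transcripts passed (2.52% upward and 2.63% downward), again near the background. The groups did not overlap for 28 of the 145 shares and for 13.3% of all. Without single libraries the count was 3 to 8, and 3 of the 9 calls, Hnrnpa1-205, Hnrnph1-212 and Hnrnph1-218, held in every alternative in which they were tested.

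Hnrnpa1-205, a coding transcript, was low or listed at 0 in Control and higher in LPS. It was 0.602, 0, 0.400 and 1.52 FPKM in Control, 15.2, 17.9, 4.49 and 20.2 FPKM in LPS, and 17.5, 7.45, 15.1 and 16.7 FPKM in LPS+XJDHT. Its share of Hnrnpa1 was 1.59%, 0%, 1.03% and 3.78% in Control, 18.9%, 19.2%, 5.84% and 21.4% in LPS, and 18.6%, 9.68%, 22.0% and 18.8% in LPS+XJDHT. The groups did not overlap (log2 ratio 2.81 ± 0.54, adjusted p = 0.015), and LPS replicate 3 lay nearest to Control. The main coding transcript, Hnrnpa1-202, was 23.9, 23.1, 20.02 and 19.0 FPKM in Control, 38.9, 40.9, 43.8 and 46.0 FPKM in LPS, and 43.1, 38.0, 3.05 and 47.5 FPKM in LPS+XJDHT. The ranges of LPS and Control were apart, and the transcript fit did not pass (adjusted p = 0.31). That fit shares 1 estimate of the spread over all 12 libraries, which takes in LPS+XJDHT replicate 3 at 3.05 FPKM. In LPS+XJDHT replicate 3 the decay-annotated Hnrnpa1-203 was high instead, at 24.2 FPKM. Hnrnpa1-203 rose from a mean of 4.46 to 12.1 FPKM in LPS (log2 fold change 1.26 ± 0.21, adjusted p = 0.0014).

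Ptbp1-201, which skips an exon and is annotated for nonsense-mediated decay, took a smaller share in LPS while the gene rose. Its share was 11.5%, 12.03%, 11.5% and 13.7% in Control, 1.63%, 0%, 3.89% and 0% in LPS, and 13.6%, 5.76%, 1.79% and 16.5% in LPS+XJDHT. Control and LPS did not overlap (log2 ratio -2.76 ± 0.63, adjusted p = 0.030), and LPS+XJDHT spanned both. The call was lost in 7 of 15 alternatives (adjusted p up to 0.073), namely those without any of the 4 Control libraries or without LPS replicate 1, 2 or 4. Skipping of this exon is a textbook case of autoregulation, since PTBP1 protein represses the exon and the skipped mRNA is unstable. The 34-base exon lies at chr10:79862014-79862047 on the plus strand of GRCm38 and is in capitals in the first line, from Ptbp1-206. In the second line, from Ptbp1-201, the neighbours are joined and the capitals mark the stop codon met after the junction.
Ptbp1-206: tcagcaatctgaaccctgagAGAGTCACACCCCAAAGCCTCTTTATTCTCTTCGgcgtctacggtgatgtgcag
Ptbp1-201: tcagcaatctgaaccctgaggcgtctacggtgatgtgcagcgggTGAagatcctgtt
The length of the exon is not a multiple of 3, so that skipping shifts the reading frame. The coding transcripts of Ptbp1 were uneven: Ptbp1-202 was listed at 0 in 7 of the 12 libraries and reached 25.0 FPKM in LPS replicate 2.

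Hnrnpa2b1-209, annotated for nonsense-mediated decay, took a larger share in LPS while the gene fell. Its share was 1.90%, 3.50%, 5.54% and 4.06% in Control, 8.22%, 15.8%, 6.81% and 8.85% in LPS, and 6.76%, 9.0%, 5.82% and 6.11% in LPS+XJDHT. All LPS libraries lay above Control (log2 ratio 1.43 ± 0.37, adjusted p = 0.049), and the call was lost in 13 of 16 alternatives (adjusted p up to 0.11), which include leaving out any library other than LPS replicate 3. Beside it, the coding Hnrnpa2b1-204 fell from a mean of 40.7 to 25.9 FPKM (log2 fold change -0.62 ± 0.10, adjusted p = 0.0012).

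Srsf2-203, which keeps an intron of the SR protein gene Srsf2, took a smaller share in LPS. Its share was 14.9%, 18.3%, 18.3% and 18.8% in Control, 11.4%, 5.87%, 7.64% and 8.21% in LPS, and 9.57%, 9.59%, 13.3% and 6.50% in LPS+XJDHT. The groups did not overlap (log2 ratio -1.19 ± 0.31, adjusted p = 0.048), the coding Srsf2-201 rose from a mean of 20.4 to 30.1 FPKM (log2 fold change 0.53 ± 0.14, adjusted p = 0.017), and the share's call was lost in 11 of 16 alternatives (adjusted p up to 0.12), among them those without any Control library or without LPS replicate 2, 3 or 4. Hnrnph2 shifted between coding transcripts that differ in a non-coding exon at the start. The share of Hnrnph2-203 was 41.9%, 47.7%, 47.5% and 39.2% in Control, 69.3%, 75.0%, 63.4% and 63.4% in LPS, and 51.3%, 66.9%, 48.3% and 60.9% in LPS+XJDHT (log2 ratio 1.39 ± 0.34, adjusted p = 0.040). The share of Hnrnph2-202 was 53.2%, 51.0%, 49.3% and 57.6% in Control, 29.3%, 22.4%, 35.0% and 34.8% in LPS, and 47.2%, 31.1%, 49.5% and 37.5% in LPS+XJDHT (-1.34 ± 0.35, adjusted p = 0.049). Their shares are nearly complements, so these are not separate observations. The calls were lost in 10 and 14 of 16 alternatives, in both cases without any Control library and without LPS replicate 1, 2 or 4.

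**Figure D4:**
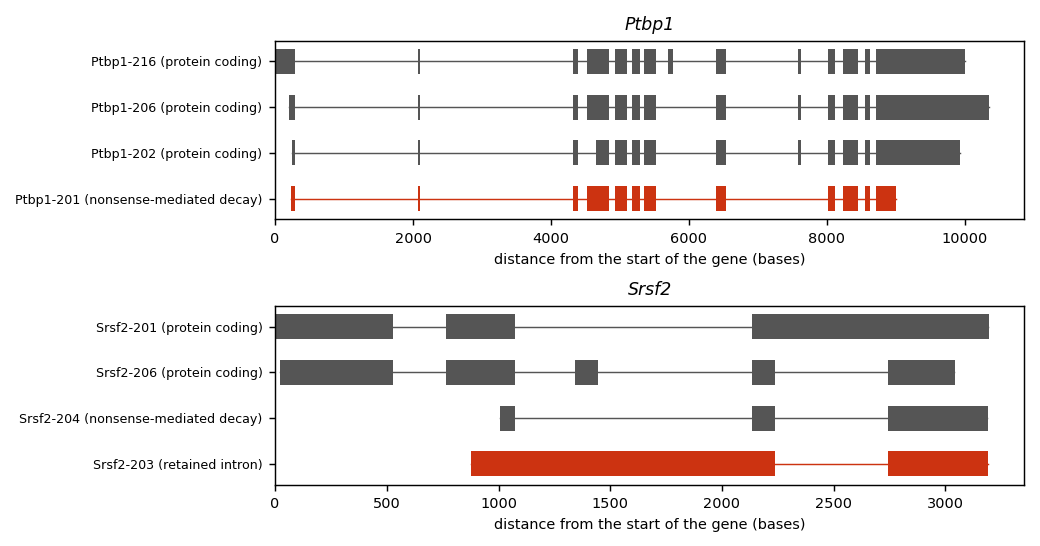
Exons (boxes) and introns (lines) of transcripts of Ptbp1 and Srsf2 by distance from the start of the gene, to scale within each panel. The transcript whose share passed in LPS against Control is red: Ptbp1-201 lacks the 34-base exon, and Srsf2-203 keeps an intron.

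Hnrnph1 exchanged a pair of processed transcripts that have 688 bases in common. Hnrnph1-218 was 4.82, 4.43, 3.796 and 2.75 FPKM in Control, was listed at 0 in each LPS library, and was 0.104, 0, 0 and 2.46 FPKM in LPS+XJDHT. Hnrnph1-212 was listed at 0 in every Control library, at 4.63, 3.50, 3.54 and 4.33 FPKM in LPS, and at 3.52, 3.63, 4.48 and 0 FPKM in LPS+XJDHT. LPS+XJDHT replicate 4 thus resembled Control, and the other 3 resembled LPS. A transcript listed at 0 throughout a group may be absent or may have had its fragments given to another transcript of the gene, which these values cannot tell apart, and the files of LPS+XJDHT come from another list of transcripts than those of Control and LPS. The share calls were adjusted p = 0.0062 for Hnrnph1-218 and 0.013 for Hnrnph1-212, and the sum of the gene overlapped between the groups. Mbnl2-208, a coding transcript, had shares of 0%, 0%, 0.774% and 0.625% in Control and 22.5%, 0%, 5.14% and 46.7% in LPS (adjusted p = 0.046). LPS replicate 2 overlapped with Control, and the call was lost in 12 of 15 alternatives (adjusted p up to 0.11), which include leaving out any library other than LPS replicate 2 or 3.

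The next transcripts by adjusted p did not pass. The decay-annotated Hnrnpdl-205 had shares of 5.77%, 5.59%, 7.51% and 4.37% in Control, 3.49%, 4.12%, 2.96% and 2.72% in LPS, and 2.24%, 2.25%, 1.25% and 2.42% in LPS+XJDHT (adjusted p = 0.061 for LPS). Rbm24-202, a processed transcript, had 2.07%, 2.37%, 3.96% and 3.62% in Control, 1.25%, 1.12%, 0.569% and 1.66% in LPS, and 2.503%, 1.23%, 1.34% and 1.09% in LPS+XJDHT (0.10). Both lay lower in every LPS library than in Control. Summed over all non-coding transcripts of a gene, 0 of 25 regulators passed in LPS against Control, where 5.36% of 3137 genes did, and 6 of the 25 had an unadjusted p below 0.05, against 20.4% of all genes (limma). With a pseudocount of 0.1, 1 gene passed. These 6 were Mbnl2, Srsf2, Srsf4, Srsf6, Hnrnpdl and Ptbp1, with adjusted p from 0.052 to 0.22. The non-coding share of Srsf4 was 28.1%, 59.2%, 24.2% and 25.1% in Control and 72.0%, 51.5%, 56.1% and 57.5% in LPS, and that of Hnrnpdl 31.2%, 32.3%, 30.7% and 26.5% in Control and 34.1%, 12.2%, 12.2% and 12.5% in LPS. For Srsf4 and Hnrnpdl, 1 library lay with the other group. The share of Mbnl2 was 97.9% to 99.97% in Control and 13.1% to 92.8% in LPS, without overlap. That of Srsf2 was 16.7% to 24.2% and 9.19% to 16.4%, also without overlap, and the shares of Ptbp1 overlapped. Mbnl2 passed without LPS replicate 3 (adjusted p = 0.023) and Hnrnpdl without LPS replicate 1 (0.044).

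**Figure D5:**
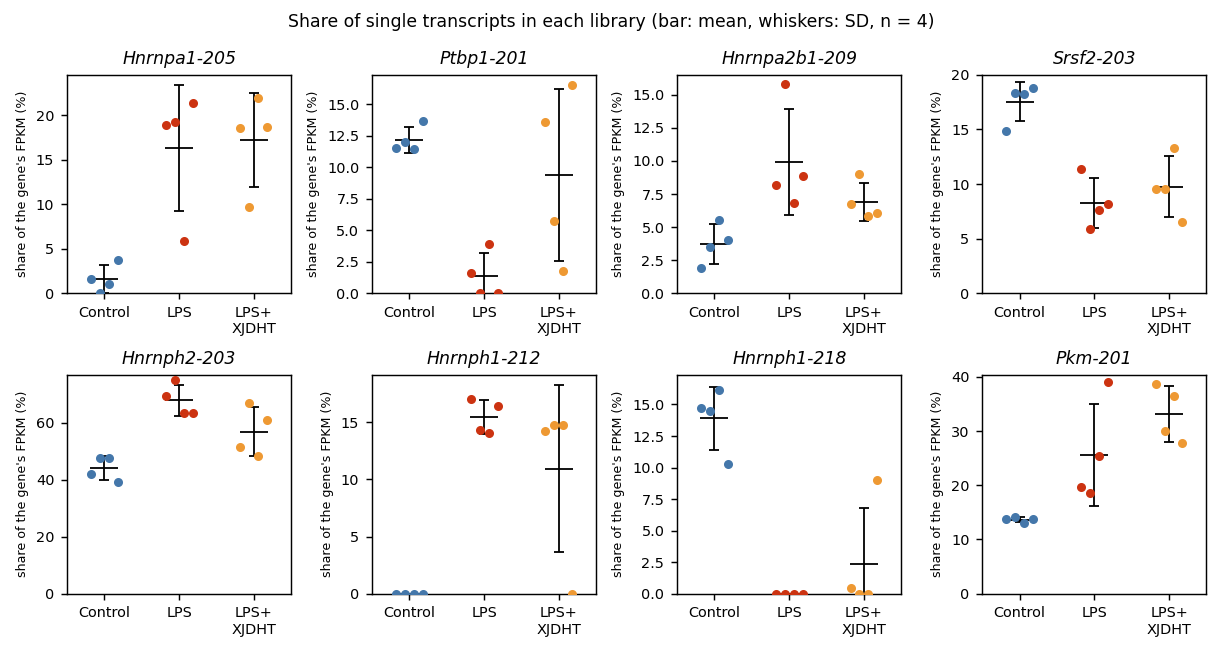
Share of single transcripts in the summed FPKM of their gene in each library, with group mean and SD (n = 4), for 7 regulator transcripts and for Pkm-201. Hnrnpa1-205 lies between 0% and 3.78% in Control and between 5.84% and 21.4% in LPS, and Ptbp1-201 spans 1.79% to 16.5% in LPS+XJDHT.

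Whether the decoction alters the regulators under endotoxin is the question of LPS+XJDHT against LPS. Of the 43 genes 0 passed (limma), where 13 of 11509 genes, 0.113%, did. With an unadjusted p below 0.05 there was 1 regulator, Srsf10, against 4.79% of all genes. Srsf10 was higher in all 4 LPS+XJDHT libraries than in any LPS library, at 9.65 to 10.8 FPKM against 6.64 to 8.90 FPKM (log2 difference 0.32, 95% interval 0.08 to 0.56, unadjusted p = 0.014 by limma, adjusted p = 0.96). Groups that do not overlap were found for this 1 regulator and for 2.82% of all genes. Next by p were Hnrnpa3, with a difference of -1.15 (interval -2.72 to 0.42), and Hnrnpu, a scaffold protein of chromatin and RNA, with -0.29 (-0.71 to 0.12). For the regulators that rose most in LPS the intervals were narrower. They ran from -0.37 to 0.38 for Srsf5, from -0.30 to 0.16 for Hnrnpa1 and from -0.22 to 0.30 for Hnrnpdl, against LPS effects of at least 1.03. For Rbfox1 the interval ran from -0.93 to 0.66 and for Ptbp1 from -0.65 to 0.63. For Qk it ran from -2.02 to 1.58, too wide to bound a difference as large as that between LPS and Control.

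Transcripts gave the same count. Of 153 transcripts 0 passed (limma; 9 at an unadjusted p below 0.05, where all transcripts had 0.0965% called and 4.89% under that p). Of 145 shares 0 passed (8 at an unadjusted p below 0.05, where all had 0.0264% and 4.72%), and of 25 non-coding shares 0 passed (1 at an unadjusted p below 0.05, where all had 0% and 4.56%). That 1 was Clk1, at 67.1% to 79.1% in LPS and 82.0% to 100% in LPS+XJDHT (log2 ratio 1.72 ± 0.58, unadjusted p = 0.012 by limma, adjusted p = 0.79). Among the 145 shares, the smallest p was that of Ptbp1-201, which was above every LPS library in 3 of 4 LPS+XJDHT libraries, with a log2 ratio of 1.99 ± 0.63 (adjusted p = 0.95).

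LPS+XJDHT was also set against Control, a comparison that uses the same Control libraries as that of LPS, so its values stand beside those above and are no repeat of them. In it 15 of 43 regulators were higher and 4 lower, where 39.2% of all genes passed, 28.5% upward and 10.7% downward. With median-ratio scaling 11 were higher and 6 lower, with 17.1% and 17.8% of all genes. The log2 fold changes were 1.40 ± 0.17 for Srsf5, 1.06 ± 0.11 for Hnrnpa1, 1.07 ± 0.12 for Hnrnpdl, 1.28 ± 0.25 for Mbnl1, -1.06 ± 0.23 for Srsf7 and -1.72 ± 0.36 for Rbfox1. Srsf11 passed here (0.50 ± 0.15, adjusted p = 0.017) and Srsf10 did not (-0.04 ± 0.11, adjusted p = 0.81). At transcript level 37 of 153 were higher and 11 lower (25.9% of all passed, 18.6% upward and 7.35% downward; 20 and 17 with median-ratio scaling, which called 12.2% and 11.9% of all). By share 4 of 145 were higher and 2 lower (5.58% of all passed, 2.79% in each direction), and of 25 non-coding shares 0 passed (limma; 3 at an unadjusted p below 0.05, where all had 5.58% and 20.1%).

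Among the shares that passed against Control with XJDHT were Clk1 transcripts. Clk1-202, which keeps introns, had shares of 13.04%, 14.1%, 14.8% and 16.2% in Control, 21.5%, 23.3%, 17.2% and 25.5% in LPS, and 26.0%, 24.1%, 33.2% and 30.5% in LPS+XJDHT (log2 ratio 1.13 ± 0.27 for LPS+XJDHT, adjusted p = 0.037). For LPS the ratio was 0.67 ± 0.27 (adjusted p = 0.19), though LPS and Control did not overlap either. The coding Clk1-201 was 8.52, 3.69, 5.47 and 8.41 FPKM in Control, 4.65, 4.24, 4.75 and 3.19 FPKM in LPS, and 2.95, 0, 1.67 and 2.08 FPKM in LPS+XJDHT, and fell by 1.60 ± 0.39 with XJDHT against Control (adjusted p = 0.011). Exclusion of an exon from Clk1 is known to yield an inactive kinase. That 91-base exon, at chr1:58420121-58420211 on the minus strand, is in capitals in the first line and absent from the decay-annotated Clk1-210, where capitals mark the stop codon.
Clk1-201: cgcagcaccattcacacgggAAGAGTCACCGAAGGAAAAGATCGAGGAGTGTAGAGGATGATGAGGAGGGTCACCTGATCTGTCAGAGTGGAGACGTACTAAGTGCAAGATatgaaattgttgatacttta
Clk1-210: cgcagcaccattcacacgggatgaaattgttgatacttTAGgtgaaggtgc
The share of Clk1-210 was 16.8%, 26.1%, 33.6% and 16.1% in Control and 15.5%, 16.4%, 25.5% and 12.5% in LPS, which overlapped (adjusted p = 0.66).

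Other parts of the splicing machinery were counted in the same fit, in which 26.6% of all genes rose and 12% fell in LPS against Control. Of 48 core spliceosome genes 19 rose and 2 fell, and the list's median was 0.31 on the log2 scale against 0.16 over all genes. Those with the smallest p were Sf3b6, which contacts the branch point (12.04 ± 1.69 to 24.4 ± 3.34 FPKM, SD, n = 4), Prpf38a (7.13 ± 1.86 to 13.04 ± 0.473), Sf3a3 (7.63 ± 0.50 to 11.9 ± 0.541) and Snrpa1 (9.27 ± 0.775 to 14.3 ± 1.77), all higher, and the ubiquitin ligase Prpf19 (56.1 ± 4.73 to 39.7 ± 1.87), which fell. Of 20 SR-protein kinases, SR-related proteins and import factors 4 rose and 1 fell, no larger a share than over all genes. Rnps1, Srrm1, Srrm2 and Scaf1 rose, and Srpk3, the SR-protein kinase of striated muscle, fell from 5.54 ± 0.729 to 2.10 ± 0.947 FPKM (log2 fold change -1.14 ± 0.24, adjusted p = 0.0028).

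Of 43 other splicing regulators 12 rose and 5 fell, near the shares over all genes. The largest changes were in the cold-inducible RNA-binding proteins, Rbm3 (19.4 ± 3.63 to 163 ± 44.3 FPKM, log2 fold change 2.98 ± 0.21, adjusted p = 1.8e-06) and Cirbp (15.3 ± 3.10 to 55.5 ± 9.0 FPKM, 1.80 ± 0.15, adjusted p = 4.8e-06). Ptbp2, the neuronal paralog of Ptbp1, rose from 4.79 ± 0.637 to 11.6 ± 3.36 FPKM. Rbpms, a regulator of smooth muscle splicing also expressed in cardiomyocytes, and Bclaf1 rose with log2 fold changes of 1.06 and 0.54. Of 16 genes of nonsense-mediated decay and the exon junction complex, Rbm8a, Smg9 and Eif4a3 rose and Magohb fell (0.59, 0.52, 0.44 and -0.62). In LPS+XJDHT against LPS, 0 genes of each of these lists passed (limma).

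Transcripts that these regulators are known to splice in the heart were examined last. Of 40 such genes 8 rose and 3 fell in LPS against Control, where 26.6% of all genes rose and 12% fell. Those with the smallest p were Rtn4, Cd44 and Mef2d (log2 fold changes 1.99, 1.61 and 1.34) and Atp2a2 and Slc25a3, which fell by 0.78 and 0.46. Of 146 of their transcripts tested by share, 12 were higher and 7 lower, in 10 of 29 genes, where 5.15% of all transcripts passed. Tnnt2-206, a cardiac troponin T transcript with a 12-base exon that Tnnt2-201 lacks, was listed at 0 in every Control library and held 18.1%, 18.5%, 38.7% and 19.3% of Tnnt2 in LPS and 24.7%, 17.8%, 13.9% and 10.5% in LPS+XJDHT (adjusted p = 1.6e-07 for LPS). A minor Tnnt2 transcript, Tnnt2-212, was listed above 0 in the same libraries at no more than 0.195%. Trdn-207, of the calcium-release protein triadin, went from 0%, 0%, 0% and 0.510% in Control to 83.1%, 69.2%, 66.5% and 54.9% in LPS, and was 58.2%, 74.0%, 1.74% and 68.8% in LPS+XJDHT (adjusted p = 0.0055 for LPS). The limit given for the Hnrnph1 transcripts listed at 0 holds for these Tnnt2 and Trdn transcripts too.

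In Pdlim5, which encodes a Z-disc scaffold, Pdlim5-201 held between 7.26% and 8.30% in Control and between 18.6% and 34.3% in LPS (adjusted p = 0.0083). Pdlim5-208 held at most 0.258% in Control and at least 1.70% in LPS (adjusted p = 0.00053), while Pdlim5-203 held at least 2.92% in Control and at most 0.627% in LPS (adjusted p = 0.0069). In Rtn4, the reticulon gene, Rtn4-205 held between 37.9% and 56.8% in Control and between 81.3% and 92.0% in LPS (adjusted p = 0.0055). Atp2a2-205, a processed transcript of the calcium pump gene, never exceeded 0.125% of it and was lower in LPS (adjusted p = 0.015). Of the transcripts of Camk2d, Ldb3 and Ryr2, known targets of Rbm20, 0 tested shares passed in LPS against Control (limma), the smallest adjusted p being those of Ryr2-209 (0.44), Camk2d-226 (0.47) and Ldb3-203 (0.60). Ttn had no transcript past the limit for a test.

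Pkm, pyruvate kinase of muscle, has a textbook pair of mutually exclusive exons, both 167 bases long. Pkm-202 carries the exon at chr9:59675029-59675195 that is used in adult muscle and that Ptbp1 and Hnrnpa1 repress, and Pkm-201 the exon at chr9:59675568-59675734 that is used in growing cells, both on the plus strand. Each is in capitals between the same 20 bases on either side.
Pkm-202: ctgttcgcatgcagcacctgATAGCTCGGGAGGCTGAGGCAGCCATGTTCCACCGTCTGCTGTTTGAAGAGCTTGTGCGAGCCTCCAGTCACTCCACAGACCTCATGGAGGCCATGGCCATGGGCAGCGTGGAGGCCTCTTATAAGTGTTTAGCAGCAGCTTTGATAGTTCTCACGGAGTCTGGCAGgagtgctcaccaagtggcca
Pkm-201: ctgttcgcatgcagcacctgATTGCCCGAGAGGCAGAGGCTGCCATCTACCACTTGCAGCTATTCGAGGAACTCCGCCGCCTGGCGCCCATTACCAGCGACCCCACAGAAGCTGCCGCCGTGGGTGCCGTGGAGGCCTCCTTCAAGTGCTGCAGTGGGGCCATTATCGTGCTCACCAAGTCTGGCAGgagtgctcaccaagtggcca
Pkm-201 was 52.6, 52.2, 50.4 and 53.5 FPKM in Control, 88.9, 98.1, 89.3 and 181 FPKM in LPS, and 177, 150, 131 and 110 FPKM in LPS+XJDHT. Its share was 13.8%, 14.2%, 12.96% and 13.7% in Control, 19.6%, 18.6%, 25.3% and 39.1% in LPS, and 38.7%, 29.9%, 36.4% and 27.8% in LPS+XJDHT. Both groups given LPS lay above Control without overlap. The ratio passed for LPS+XJDHT against Control (1.63 ± 0.36, adjusted p = 0.026) and not for LPS against Control (1.06 ± 0.36, adjusted p = 0.12). Pkm-202 went the other way, between 76.2% and 77.2% in Control, 47.9% and 72.1% in LPS (adjusted p = 0.17), and 47.1% and 60.4% in LPS+XJDHT (adjusted p = 0.040). Marker sums of fibroblasts, endothelial cells, neutrophils and monocytes were higher in the groups given LPS, those of erythroid cells lower, and macrophage sums overlapped. Their part in the shift was not tested.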

How the data were processed

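The deposited files hold 1 value per transcript, read as FPKM, for each of the 12 libraries. Value times transcript length came in whole multiples of 1 step per library for 99.0% to 99.5% of low values (within 0.1 of a whole number). FPKM gives such steps. Any other unit that divides counts by length and by a constant of the library gives them too, so the steps do not settle the unit. The submitters' processing notes name mm10 and limma without their role. Which aligner and which program made the FPKM is not given in the sources used here. Of 36293 transcripts in the files of Control and LPS and 35802 in those of LPS+XJDHT, 33137 were in both. The 24723 annotated in GENCODE M21 (GRCm38) were kept, and FPKM were summed per gene. Transcripts assembled by the authors, 37 Ensembl transcripts without annotation and 25 regulator transcripts listed in only 1 of the file sets were left out.

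Genes and transcripts with at least 1 FPKM in 4 libraries were tested on log2(FPKM + 1) with limma 3.58.1 (R 4.3.3, intensity trend), in 1 fit of all 12 libraries, two-sided, with Benjamini-Hochberg adjustment over all features and a threshold of 0.05. Fold changes on this scale understate changes of low values. Ratios within a gene used a pseudocount of 0.5, and the non-coding sum had to reach 0.5 FPKM. Errors are standard errors unless SD is stated. The fits were checked on simulated data. Genes named with all values are the panel and the Srsf and Hnrnp genes past the threshold, up to 8 each way, and in the other lists the 5 with the smallest p. The members and lists were chosen with earlier results of these data known. Alternatives were another pseudocount, no limit or a limit of 5 FPKM, the compared groups alone, scaling by median ratio, limma-voom on fragments recovered from the steps, every transcript of the Control and LPS files, and leaving out each library. Sums and tables were made in Python 3.11.15 with pandas 2.3.3, and plots with matplotlib 3.10.9.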

Additional observations from a re-analysis of the deposited data

Results flagged for a closer look

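Of 111 groups of 4 libraries checked for a library far from the other 3, 12 had one. Chance gives about 1 in 20 for independent values with a normal spread. FPKM and shares need not meet that, and some groups are transcripts of the same gene, so no excess over chance is claimed. Qk was 62.7 FPKM in LPS replicate 1 against 4.31 to 10.9 FPKM in the other LPS libraries, and 46.8 FPKM in LPS+XJDHT replicate 1 against 3.31 to 7.76 FPKM. Mbnl1 was 19.5 FPKM in LPS replicate 4 against 9.06 to 10.3 FPKM, and Mbnl2 was 33.1 FPKM in LPS replicate 3 against 6.70 to 8.12 FPKM. Rbfox2 was 0.906 FPKM in LPS replicate 3 against 0.373 to 0.410 FPKM, and 0.464 FPKM in LPS+XJDHT replicate 2 against 0.142 to 0.195 FPKM.

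Among transcript shares, Hnrnph1-218 held 9.02% in LPS+XJDHT replicate 4 against at most 0.420% in the other 3, and Hnrnph1-212 held 0% there against 14.3% to 14.8%. Hnrnpa1-205 held 5.84% in LPS replicate 3 against 18.9% to 21.4%. Srsf2-203 held 14.9% in Control replicate 1 against 18.3% to 18.8%. Hnrnpdl-205 held 1.25% in LPS+XJDHT replicate 3 against 2.24% to 2.42%, and Mbnl2-205 held 0.0523% in LPS+XJDHT replicate 4 against 83.7% to 90.7%. LPS replicate 3 and LPS+XJDHT replicate 4 hold 3 of these each, and the others fall in 6 libraries. The cause was not tested.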

How the results depend on the processing

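No paired analysis was possible because each mouse has a number of its own in the labels, and replicates 1 to 4 of a group are named in the order of listing, which pairs no libraries. With a limit of 5 FPKM, 27 regulator transcripts passed in LPS against Control and 31 in LPS+XJDHT against Control, 5 and 2 by share. With the pseudocount lowered to 0.1, 5 shares and 1 non-coding share passed in LPS against Control. With the compared groups alone, 4 shares passed in LPS against Control and 2 in LPS+XJDHT against Control. With no limit, 10 shares passed in LPS+XJDHT against Control. Leaving out 1 library gave 17 to 21 genes, 33 to 44 transcripts, 3 to 8 shares and 0 to 1 non-coding shares in LPS against Control. In LPS+XJDHT against Control it gave 18 to 21 genes, 34 to 47 transcripts, 2 to 7 shares and 0 to 1 non-coding shares. In LPS+XJDHT against LPS, 0 genes and 0 shares passed each time (limma). Of the genes named with all values, Rbm24 in LPS against Control changed sign, to -0.16 with median-ratio scaling, and ran from -0.13 without LPS replicate 3 to 0.18 without LPS replicate 2. Outside that set, Srsf4 (-0.076 to 0.27), Hnrnpll (-0.32 to 0.015), Hnrnpm (-0.26 to 1.17) and Hnrnpu (-0.23 to 0.044) changed sign between alternatives too. The next counts cover the genes named with all values and the shares with the smallest adjusted p. Of their other alternatives, leaving out a library apart, 185 kept direction and side of the threshold, 17 lost the call and 2 gained it. Leaving out a library, 357 kept it, 65 lost the call and 7 gained it. Calls by share are the least stable of the counts given. Depth does not limit the abundant genes, but values under 1 FPKM, such as Rbfox2, rest on few fragments, and how fragments shared by transcripts of a gene were divided is not given in the sources used here.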
